A study of Mus musculus with 67 samples.

Results

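Neurotransmitter receptors and ion channels were measured in the cerebral cortex of C57BL/6 mice by 13 genes, carried by 15 of the 8448 cDNA probes on each filter. These genes were taken by name: a gene belonged when a probe had exactly 1 gene symbol and that symbol began with the stem of a glutamate, GABA, glycine, acetylcholine, serotonin, dopamine or adrenergic receptor, or of a potassium, sodium or calcium channel. They are 13 of the 4209 genes that such probes represent. Only 2 were receptor subunits (Gabra3 and Grik1), 10 had the potassium channel stem, 1 had the sodium channel stem (Scn2b), and 0 came from the AMPA, NMDA, metabotropic glutamate, GABA-B, glycine, acetylcholine, serotonin, dopamine, adrenergic or calcium channel stems. The potassium channel stem also took in Kcnq1ot1, which is a long noncoding RNA and not a channel, so 12 genes encode receptor or channel subunits.

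Each of the 67 filters was hybridised with radiolabelled cDNA from the cortex of 1 mouse. Mice fed ad libitum (AL) were 17-21 days old (5 arrays), 33-44 days (5), 6 months (10), 16 months (10) and 24 months (10), and mice on caloric restriction (CR) were 6 months (9), 16 months (10) and 24 months (8), with males and females in every set. The 24 months mice were 673 to 743 days old. All CR males among them were 673 days and the AL males 714 to 743 days, so diet and age are partly confounded there. AL mice had unlimited regular feed. CR mice had the same until 13 weeks of age and then, in steps, a fortified feed at 60% of the full amount until they were killed. No mouse carried a transgene or a targeted allele, and the tissue was whole cortex, so a smaller number of cells of a type and less RNA per cell cannot be told apart. Levels are z-scores, in which 0 is the mean and 1 the SD of all probes of the same array. Differences are given in these z units and cannot be turned into fold changes, and because the brightness of a cDNA spot also depends on the spot, the levels of different genes are not compared.

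Ion channels set how excitable a neuron is. Voltage-gated sodium channels carry the rising phase of the action potential, and potassium channels of many families bring the membrane back, set its resting level and limit the firing rate. GABA-A receptors are chloride channels opened by the main inhibitory transmitter of the cortex, and kainate receptors, to which Grik1 belongs, are cation channels opened by glutamate. Several of the genes encode accessory subunits, which do not form a pore themselves but change how much channel reaches the membrane and how it gates.

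RefSeq (GRCm38.p6) gave a promoter window, from 250 bases before to 50 bases after the start, for 9 of the 13 genes, 11 windows in all. Kcnd2 and Kcnd3, which encode closely related pore subunits of the rapidly inactivating A-type potassium current, are shown because their values moved together over the arrays. Their correlation was 0.82 with group means removed, and 0.29 once the split by array number described below was removed too. Capitals mark the GC box GGGCGG on either strand.

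Kcnd2, chr6:21215096-21215395, + strand: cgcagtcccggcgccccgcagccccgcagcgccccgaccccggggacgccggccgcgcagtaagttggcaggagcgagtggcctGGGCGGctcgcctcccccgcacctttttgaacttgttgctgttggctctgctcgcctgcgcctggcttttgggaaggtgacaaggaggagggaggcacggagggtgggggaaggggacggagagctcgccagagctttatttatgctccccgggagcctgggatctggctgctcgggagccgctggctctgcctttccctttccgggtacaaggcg

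Kcnd3, chr3:105451640-105451939, + strand: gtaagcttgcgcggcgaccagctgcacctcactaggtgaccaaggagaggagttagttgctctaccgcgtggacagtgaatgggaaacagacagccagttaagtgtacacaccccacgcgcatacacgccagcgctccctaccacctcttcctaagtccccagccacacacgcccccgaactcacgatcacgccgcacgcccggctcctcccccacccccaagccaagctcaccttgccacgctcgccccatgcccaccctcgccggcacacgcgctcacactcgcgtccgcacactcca

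Both windows were rich in CpG, with 26 CpG pairs for Kcnd2 and 25 for Kcnd3 against a median of 7 over 32851 windows. The GC box was in the Kcnd2 window and in 1 of the Kcne3 windows, hence in 2 of 9 genes, and in 35.7% of all windows. Of the other motifs searched on both strands, the TATA box TATAAA was in 1 gene (Gabra3, both of its windows) and in 13.6% of all windows, while the cAMP response element TGACGTCA (1.79% of all windows) and the E-box CACGTG (7.15%) were in 0 of the 9 genes. These are matches of letters only. No window for Kcnq1, Grik1, Kcnab3 or Kcnn2 was found in the sources used here.

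**Figure D1:**
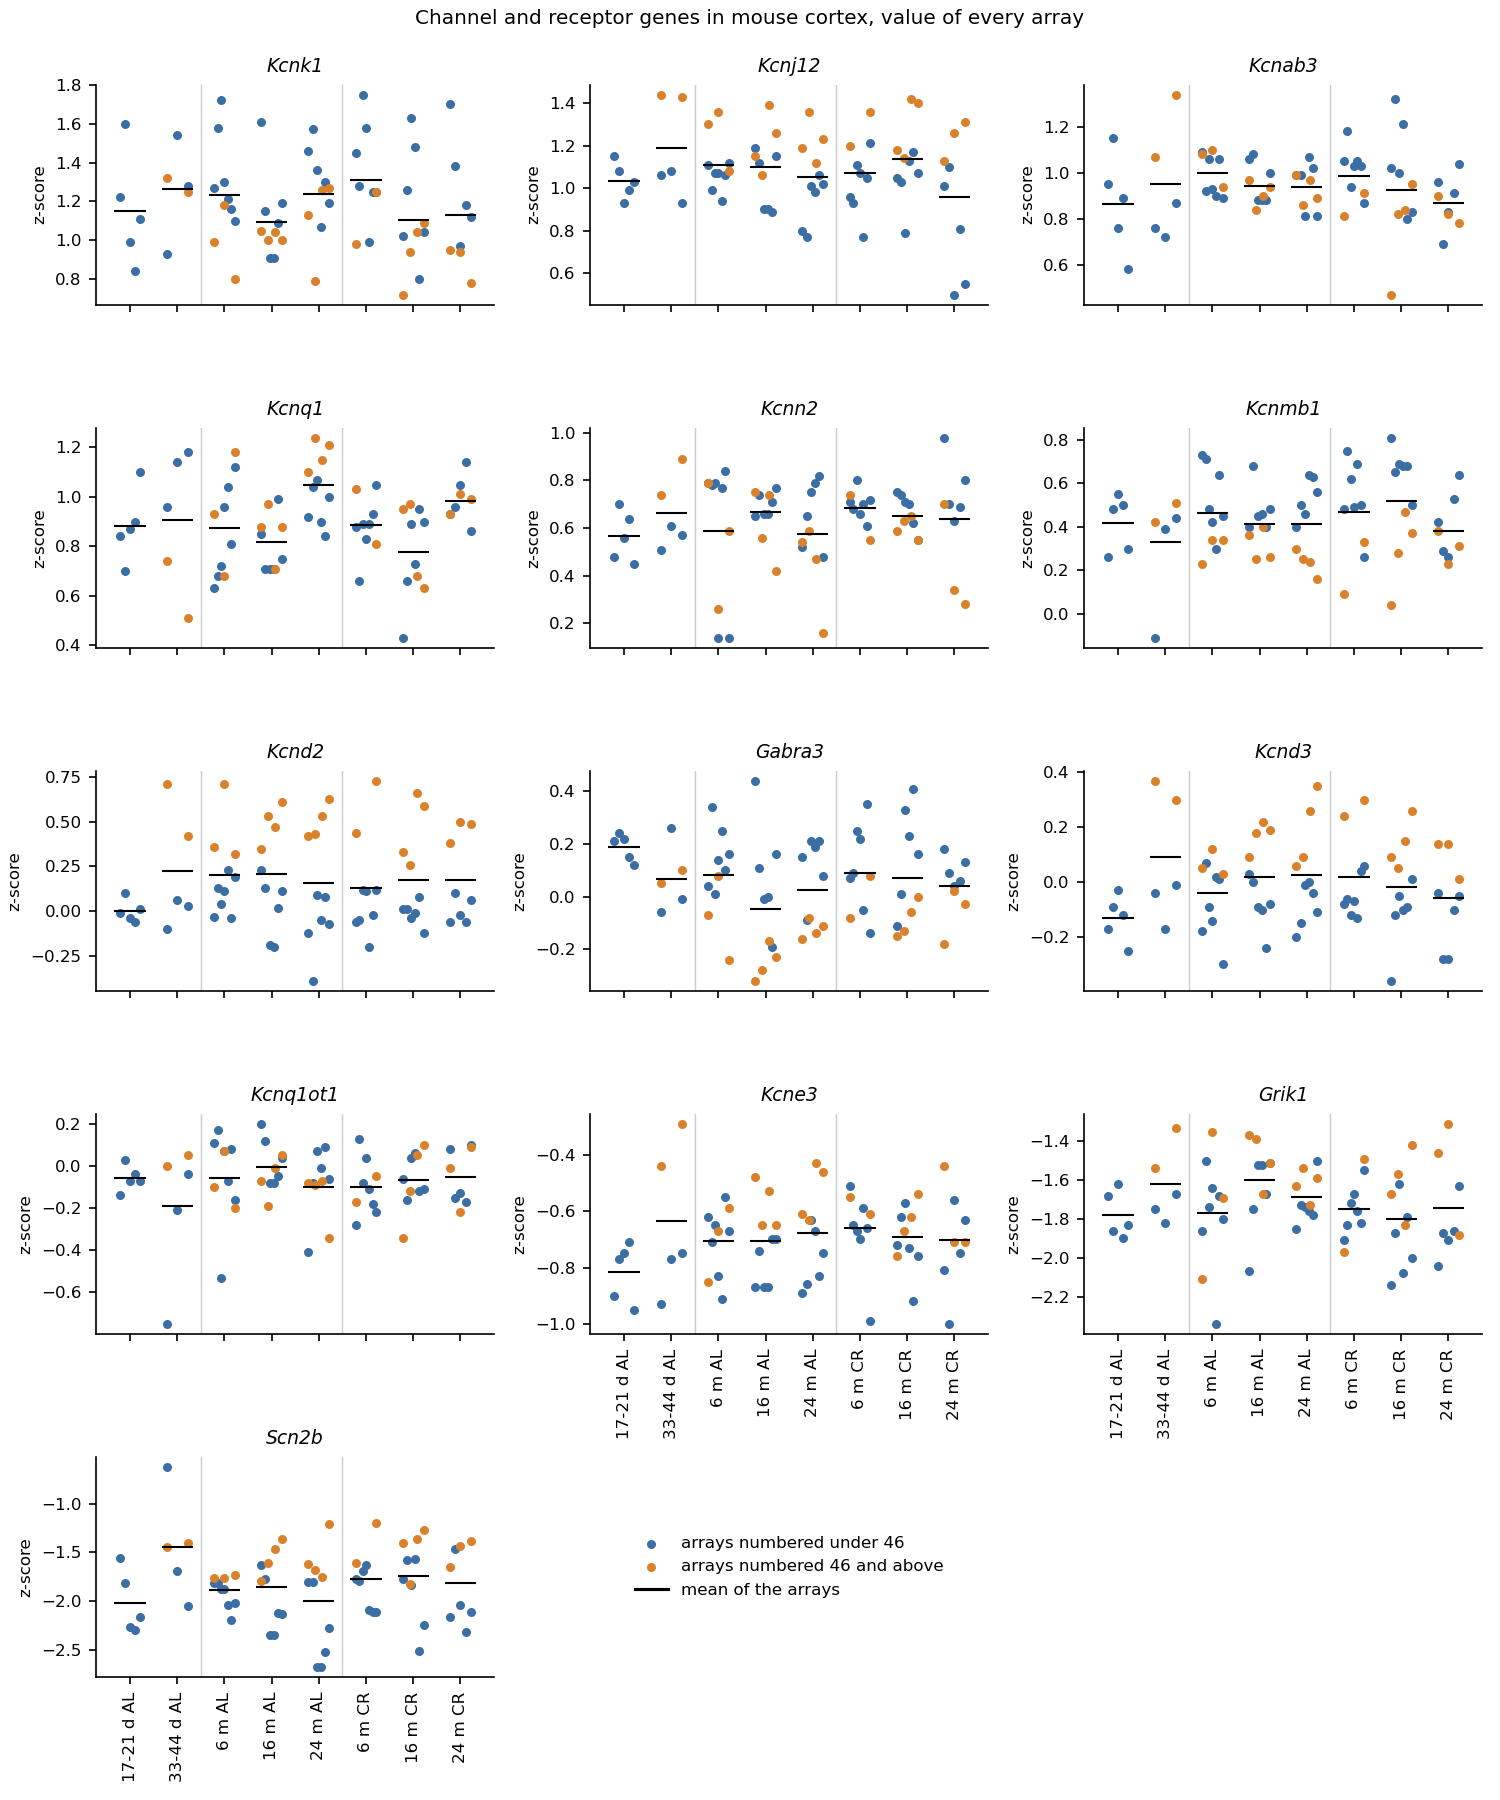
Value of each of the 13 genes on every array, by age and diet, with 1 panel for each gene. The y axis is the z-score of the array, points are arrays, blue points are arrays numbered under 46 and orange points arrays numbered 46 and above, and the black line is the mean of the arrays of a condition. Within conditions the points of Kcnd2 separate by colour, and the condition means differ by at most 0.58 z units (Scn2b).

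Both A-type channel genes, Kcnd2 and Kcnd3, differed between arrays by the order in which the arrays were numbered. The labels number the arrays but mark no boundary, and the cut at number 46 was set here. The shares and separations below describe this cut and are not a test of it. Between the 22 arrays numbered 46 and above and the 45 before them lay a median of 29.2% of the variance of all probes. For the 13 genes the median was 27.7%. Kcnd2 lay between -0.39 and 0.23 on all 45 earlier arrays and between 0.26 and 0.73 on all 22 later arrays, with no overlap, and 77.4% of its variance lay between the array series. Such a separation was seen for 520 of 8448 probes (6.16%) and for 1 of the 13 genes. With no overlap over all arrays, Kcnd2 is necessarily also separated within each of the 7 conditions that had both kinds of array. Kcnd3 had a mean of -0.10 on the earlier and 0.17 on the later arrays, with 60.2% of its variance between the series and no overlap in 6 of 7 conditions. The inward rectifier Kcnj12 had means of 0.99 and 1.26, and Gabra3, an alpha subunit of GABA-A receptors, had 0.13 and -0.10. Over the 13 genes the median size of the later minus earlier difference was 0.20, beside 0.22 over all probes. All conditions but 1 held both series (17-21 days had 5 earlier and 0 later arrays), so both comparisons with 17-21 days are partly confounded with the series, whereas the adult conditions had 2 to 4 later arrays each.

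The genes otherwise varied little. The SD within groups of the same age, diet and sex ran from 0.14 (Kcnab3) to 0.39 (Scn2b), with a median of 0.18 over the 13 genes and 0.21 over all probes. The 8 condition means of a gene spanned from 0.12 (Kcnn2) to 0.58 (Scn2b), and the arrays of 0 of the 13 genes were without overlap in any of the 10 pairs of ages or diets examined. Over all 8448 probes such a separation was also rare, with 80 for 33-44 against 17-21 days, 4 for 6 months against 17-21 days, 2 for 24 against 16 months AL, 1 for 6 months against 33-44 days and 0 for the other 6 pairs. A pair of arrays, 16 months AL male replicate 2 and female replicate 2, were near-identical (r = 0.99975 over all probes, against at most 0.989 for any other pair). They are averaged and counted once in the means and medians of a condition below, while the fits and the means by sex keep both, since their labels give different sexes. Whether they come from 1 mouse is not known. The Kcnq1 difference at 24 against 16 months AL and the Grik1 difference between diets at 16 months are also given without them. Other fitted differences, means by sex, fits within 1 array series and the selection of the methods are given with them only. Each comparison is read against all probes of the same fit (limma, Benjamini-Hochberg adjustment over 8448 probes). Intervals are 95% intervals of a single difference and are not adjusted.

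The question of maturation was addressed by mice of 17-21 days and 33-44 days. Scn2b, the accessory beta subunit that links sodium channels to the cell surface and to adhesion molecules, had the largest difference, 0.57 z units (95% interval 0.08 to 1.06). Its 5 values at 17-21 days were -2.30, -2.27, -2.16, -1.82 and -1.56, and at 33-44 days -2.05, -1.69, -1.44, -1.40 and -0.62. The sets overlap, and the highest value belonged to 33-44 days male replicate 1. Kcnd3 was at -0.25, -0.17, -0.12, -0.09 and -0.03 at 17-21 days and at -0.17, -0.04, -0.01, 0.30 and 0.37 at 33-44 days. Here the 2 values above 0 were the 2 arrays of the later series. Kcne3, an accessory subunit that can make Kcnq1 channels stay open, was at -0.95, -0.90, -0.77, -0.75 and -0.71 at 17-21 days and at -0.93, -0.77, -0.75, -0.44 and -0.29 at 33-44 days, and again the 2 highest values at 33-44 days were the later arrays.

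In this comparison 0 of the 13 genes passed the adjusted test, beside 8 of all 8448 probes (0.0947%). At an unadjusted p under 0.05 there were 3 of 13, Scn2b, Kcnd3 (0.23, interval 0.01 to 0.45) and Kcne3 (0.205, interval 0.01 to 0.40), with adjusted p from 0.313 to 0.350, beside 14% of all probes. Scn2b was a dim spot, with a mean z of -1.83 at the 3.34 percentile of all probes and 0 of 67 arrays above 0. With array series and array cycle (5 runs of consecutive array numbers, each begun by a juvenile male) as blocks, 0 of 13 were under 0.05 unadjusted, beside 9.65% of probes, and 0 of 13 passed the adjusted test, beside 0.249%. The differences were then 0.25 for Scn2b, 0.13 for Kcnd3 and 0.13 for Kcne3. Of the receptors, Gabra3 differed by -0.12 (interval -0.36 to 0.11) and Grik1 by 0.17 (interval -0.11 to 0.44). Gabra3 was the only one of 28 genes listed for a known change of level or subunit during cortical maturation that was measured. Its 5 values at 17-21 days were 0.12, 0.15, 0.21, 0.22 and 0.24, and at 33-44 days -0.06, -0.01, 0.05, 0.10 and 0.26, so that 4 of the 5 older arrays lay below every younger array and 1 lay above all of them.

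From 33-44 days to 6 months, 0 of 13 genes passed, adjusted or unadjusted, where 5.31% of all probes were under 0.05 unadjusted. The smallest p values belonged to Scn2b (-0.40, interval -0.82 to 0.02), Kcnd3 (-0.14, interval -0.33 to 0.05) and Grik1 (-0.17, interval -0.41 to 0.07). Between 17-21 days and 6 months 1 of 13 was under 0.05 unadjusted, beside 3.46% of probes. This was Kcnab3, a cytoplasmic beta subunit of voltage-gated potassium channels, with means of 0.87 ± 0.21 (n = 5) and 1.00 ± 0.09 (n = 10), a difference of 0.16 (interval 0.001 to 0.33, adjusted p = 0.815). The spots around Kcnab3 on the filter, within 2 rows and 2 columns, differed by 0.13 on average in the same comparison, and with the neighbours subtracted the gene's difference was 0.03. Kcne3 (0.12, interval -0.06 to 0.29) and Kcnd2 (0.20, interval -0.11 to 0.52) followed. Within the earlier arrays, the only series that 17-21 days had, the Kcnd2 difference was 0.09. From 6 to 16 months AL 0 of 13 were under 0.05, beside 3.04% of probes, with Grik1 at 0.17 (interval -0.02 to 0.36), Gabra3 at -0.13 (interval -0.29 to 0.03) and Kcnk1, a background potassium channel, at -0.14 (interval -0.37 to 0.10). In none of these 3 comparisons did any probe of the filter pass the adjusted test (0%).

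Between 16 and 24 months the channel gene with the smallest p was Kcnq1. It encodes a voltage-gated potassium channel best known from heart, inner ear and epithelia. In AL males of 16 months its values were 0.71, 0.71, 0.85, 0.88 and 0.99, and in AL females 0.71, 0.71, 0.75, 0.88 and 0.97. In AL males of 24 months they were 0.84, 0.92, 1.07, 1.10 and 1.15, and in females 0.90, 1.00, 1.04, 1.21 and 1.24. All 10 arrays of 24 months lay above the mean of 16 months, yet the ranges overlap, since the highest value at 16 months (0.99) exceeded 3 of those at 24 months. The means were 0.83 ± 0.11 (SD, n = 9) at 16 months and 1.05 ± 0.13 (n = 10) at 24 months, and 0.88 ± 0.20 (n = 10) at 6 months.

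**Figure D2:**
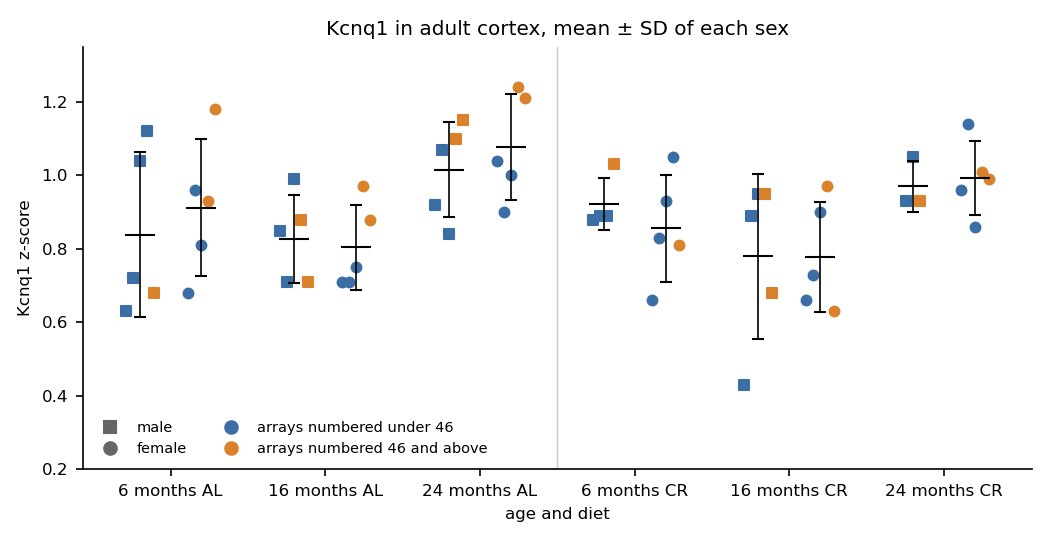
Kcnq1 z-score in every adult array by age and diet, with squares for males and circles for females. Bars are the mean and SD of each sex, blue points are arrays numbered under 46 and orange points arrays numbered 46 and above. In both diets and both sexes the mean at 24 months is above that at 16 months, by 0.19 to 0.27 z units, and the arrays of the 2 ages overlap.

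The fitted difference between 24 and 16 months AL was 0.23 (95% interval 0.08 to 0.38) and ranked 45 of 8448 probes, but its adjusted p was 0.607. Hence 0 of 13 genes passed, as did 0% of all probes, and 1 of 13 was under 0.05 unadjusted, a share close to the 6.57% of all probes. With array cycle and series as blocks the same difference passed (adjusted p = 0.0408), making 1 of 13 genes beside 1.09% of probes. At an unadjusted p under 0.05 that fit had 1 of 13 genes and 15.9% of probes. This call depended on single arrays: with both near-identical arrays left out of the blocked fit the difference was 0.20 and the adjusted p 0.212, and with each of the 20 arrays of these ages left out in turn the adjusted p ran from 0.0189 to 0.136 and was under 0.05 in 7 of 20 fits. Both near-identical arrays read 0.71, the lowest value of their condition. Without them the unblocked difference was 0.20. It was 0.175 within the earlier arrays, where it missed an unadjusted 0.05, and 0.315 within the later, where it did not. The probes around Kcnq1 on the filter differed by 0.06, and 0.17 remained with them subtracted (adjusted p = 0.165 with both blocks).

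CR mice, measured on separate arrays, gave values of the same size. Kcnq1 ran from 0.43 over a median of 0.81 to 0.97 at 16 months CR (mean 0.78 ± 0.18, n = 10) and from 0.86 over 0.98 to 1.14 at 24 months CR (0.98 ± 0.09, n = 8). All 8 of the older arrays lay above the mean of the younger ones. The difference was 0.20 (95% interval 0.04 to 0.36, adjusted p = 0.999), and 0.20 with both blocks (adjusted p = 0.204). Here the surrounding probes differed by 0.14 and 0.06 remained after their subtraction, a larger share than in AL, and the part of the neighbours in the result was not tested further. The change between 16 and 24 months differed between the diets by -0.03 (CR minus AL, interval -0.25 to 0.19). In days of age the CR males of 24 months were younger than the AL males. Kcnq1 was the only gene of the 13 whose mean was higher at 24 than at 16 months in all 4 combinations of diet and sex, with differences of 0.19 in AL males, 0.27 in AL females, 0.19 in CR males and 0.21 in CR females. For 2 of the 13, Scn2b and Kcnj12, the mean was lower in all 4. The AL means by sex include the near-identical arrays, 1 in each sex. How many of all probes have the same sign in all 4, or all older arrays above the younger mean, was not counted. Kcnq1 was named for its p in these same arrays, so the signs are not separate support.

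Against 6 months, the Kcnq1 difference at 24 months AL was 0.17 (interval 0.02 to 0.32, adjusted p = 1.0), the only 1 of 13 under 0.05 unadjusted, beside 2.89% of probes. With both blocks it was 0.20 (adjusted p = 0.316), again 1 of 13, beside 10.9% of probes. This comparison shares the 24 months AL arrays with the previous one. Grik1 (0.09, interval -0.10 to 0.28) and Kcnab3 (-0.06, interval -0.19 to 0.07) came next. The methods describe a stepwise selection, of which the last step, an analysis over ages, sexes and diets together, was not run here. The steps before it keep probes brighter than the array mean whose z-ratio reaches 1.5 in size and whose p, before adjustment, is below 0.05. They took Kcnq1 in 3 comparisons. These were 24 against 16 months AL (z-ratio 2.21, where 2.18% of all probes were selected), 24 against 6 months AL (1.88, with 1.53% of probes) and 24 against 16 months CR (1.94, with 1.28%). They took 0 of the other 12 genes in any comparison. For Scn2b, Grik1, Kcne3 and Kcnq1ot1 the brightness step decided this, since their means lay below the array mean in every comparison. Scn2b met the z-ratio and p limits at 33-44 against 17-21 days (z-ratio 2.40) and at 6 months against 33-44 days (z-ratio -3.05). It was left out there for its brightness only.

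None of the other channel genes passed the test between 16 and 24 months. In AL mice Kcnk1 differed by 0.145 (interval -0.09 to 0.38), Kcnq1ot1 by -0.09 (interval -0.24 to 0.06), Scn2b by -0.15 (interval -0.49 to 0.19), Grik1 by -0.09 (interval -0.28 to 0.10) and Gabra3 by 0.08 (interval -0.09 to 0.24). The 13 genes had a median of -0.003, beside -0.004 over all probes. In CR mice 2 of 13 were under 0.05 unadjusted, beside 4.15% of probes, and 2 of 13 with both blocks, beside 12.9%. The second was Kcnj12, with a difference of -0.195 (interval -0.39 to -0.0002, adjusted p = 0.999). Its values at 24 months CR were 0.50, 1.01 and 1.13 in males and 0.55, 0.81, 1.10, 1.26 and 1.31 in females, so the mean of 0.96 ± 0.31 (n = 8) was set by a low pair of arrays. The probes around Kcnj12 differed by -0.17, and -0.02 remained after their subtraction. Kcnmb1, an accessory subunit of calcium-activated potassium channels best known from smooth muscle, differed by -0.14 (interval -0.33 to 0.05). No probe passed the adjusted test in CR mice (0%).

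**Figure D3:**
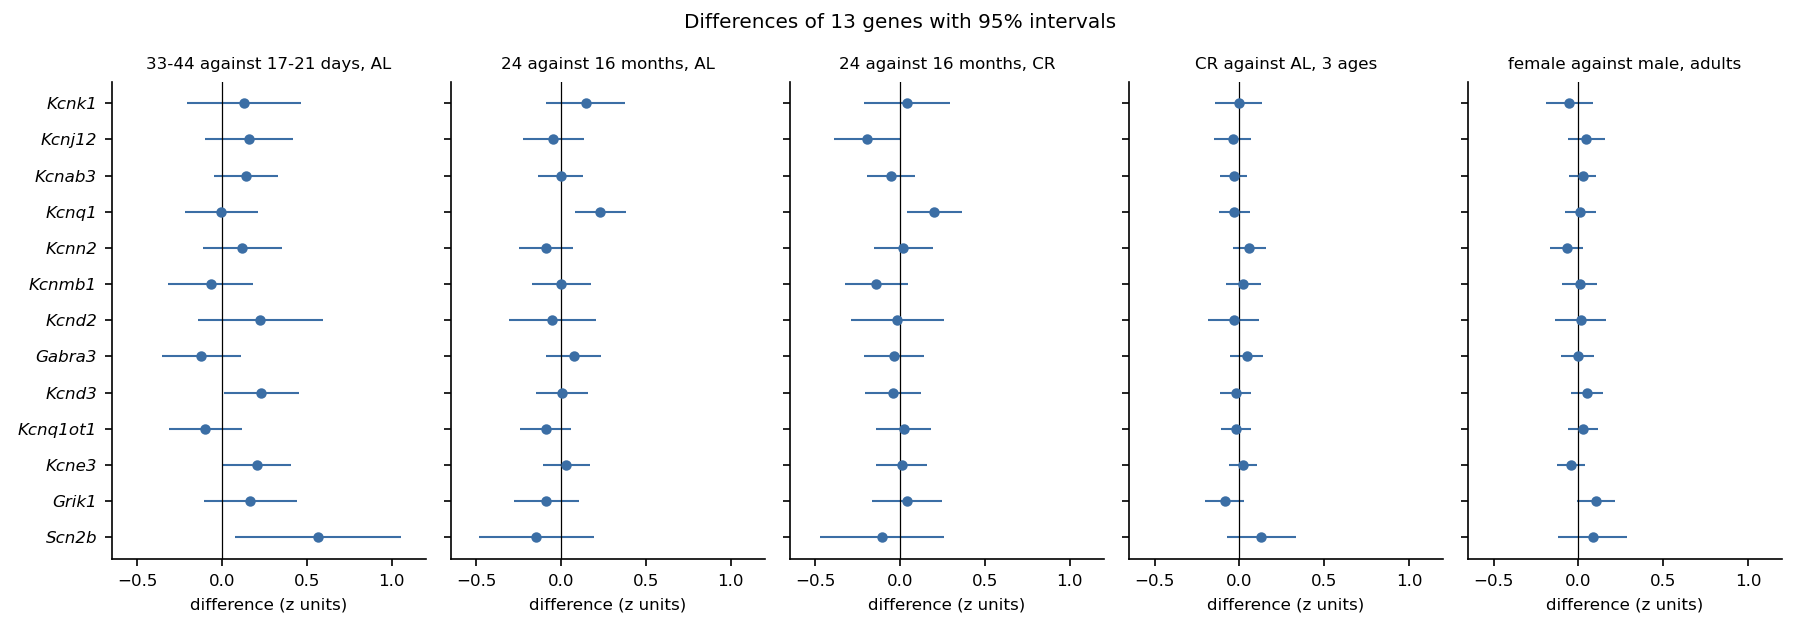
Differences of the 13 genes in 5 comparisons, in z units, with points for the fitted difference and bars for its 95% interval. The intervals of Kcnq1 exclude 0 in both comparisons of 24 with 16 months before adjustment, while for the diets and the sexes all 13 intervals include 0.

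Whether diet changed these genes was asked at each age. At 6 months 0 of 13 were under 0.05 unadjusted, beside 0.462% of probes, with Kcnn2, a calcium-activated potassium channel of small conductance, at 0.10 (interval -0.06 to 0.27), Kcne3 at 0.05 (interval -0.09 to 0.20) and Kcnd3 at 0.06 (interval -0.10 to 0.22). At 16 months 1 of 13 was, beside 1.03% of probes. This was the kainate receptor subunit Grik1, which ran from -2.07 over a median of -1.52 to -1.37 in AL (n = 9) and from -2.14 over -1.81 to -1.42 in CR (n = 10). The ranges largely overlap, and the fitted difference was -0.20 (interval -0.39 to -0.01, adjusted p = 1.0). Without the near-identical arrays the difference was -0.18 and no longer under 0.05 unadjusted. Grik1 was a dim spot, with a mean z of -1.72 at the 3.92 percentile of all probes. Gabra3 (0.12, interval -0.04 to 0.28) and Kcnmb1 (0.10, interval -0.07 to 0.28) followed.

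At 24 months 0 of 13 were under 0.05, beside 1.04% of probes, with Kcnj12 at -0.11 (interval -0.31 to 0.08), Kcnn2 at 0.09 (interval -0.09 to 0.26) and Kcnd3 at -0.08 (interval -0.25 to 0.08). Over the 3 ages together, 0 of 13 were under 0.05, beside 0.71% of probes. The 13 differences ran from -0.09 (Grik1, interval -0.20 to 0.03) to 0.13 (Scn2b, interval -0.07 to 0.33). The 95% intervals reached 0.08 to 0.20 to either side of the estimate. These widths are unadjusted and are not a limit of detection for the adjusted test, which could also miss larger differences. Kcnn2 was at 0.06 (interval -0.04 to 0.15) and Gabra3 at 0.04 (interval -0.05 to 0.14). The change from 16 to 24 months differed between the diets for 0 of 13 genes, beside 0.888% of probes, with Kcnj12 at -0.15 (interval -0.41 to 0.12), Kcnmb1 at -0.14 (interval -0.40 to 0.11) and Kcnq1ot1 at 0.11 (interval -0.11 to 0.33). No probe passed the adjusted test in any of these diet comparisons (0%). Comparisons that use the 24 months CR males are partly confounded with age, since these mice were younger than the AL males.

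Between the sexes, over the adult groups, 0 of 13 were under 0.05, beside 0.971% of probes. Grik1 was at 0.10 (female minus male, interval -0.01 to 0.22), Kcnn2 at -0.07 (interval -0.17 to 0.03) and Kcne3 at -0.05 (interval -0.13 to 0.04). The change from 6 to 24 months AL differed between the sexes for 0 of 13, beside 1.11% of probes. The smallest p values there were those of Kcnq1ot1 (-0.16, interval -0.46 to 0.14), Kcnn2 (-0.16, interval -0.49 to 0.16) and Kcnd3 (-0.07, interval -0.38 to 0.24). No probe passed the adjusted test in either comparison (0%).

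Kcnq1ot1 was the only gene with more than 1 probe. It is transcribed antisense from within the Kcnq1 gene and is known for silencing imprinted neighbours on the paternal chromosome. Whether a spot reads 1 strand only is not given in the sources used here, so signal from Kcnq1 and Kcnq1ot1 may not be fully separable. Its 3 probes had mean z of -0.07, -0.40 and -0.85, and the first of these, the highest, stands for the gene. With group means removed, the first correlated with the others at r = 0.09 and -0.25, and the others with each other at 0.48, which became 0.14 once the array series was removed as well (67 arrays). Between 17-21 and 33-44 days the probes differed by -0.10, 0.305 (adjusted p = 0.278) and 0.35 (adjusted p = 0.297), so the sign depended on the probe. It also leaned on 33-44 days male replicate 1, where the first probe read -0.75, its lowest of 67 arrays. The last probe read 0.03 there, its highest. The other values of the first probe at 33-44 days were -0.21, -0.04, 0 and 0.05, against -0.14 to 0.03 at 17-21 days. At 24 against 16 months AL they gave -0.09, -0.03 and 0.01. Kcnq1 itself had 1 probe.

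**Figure D4:**
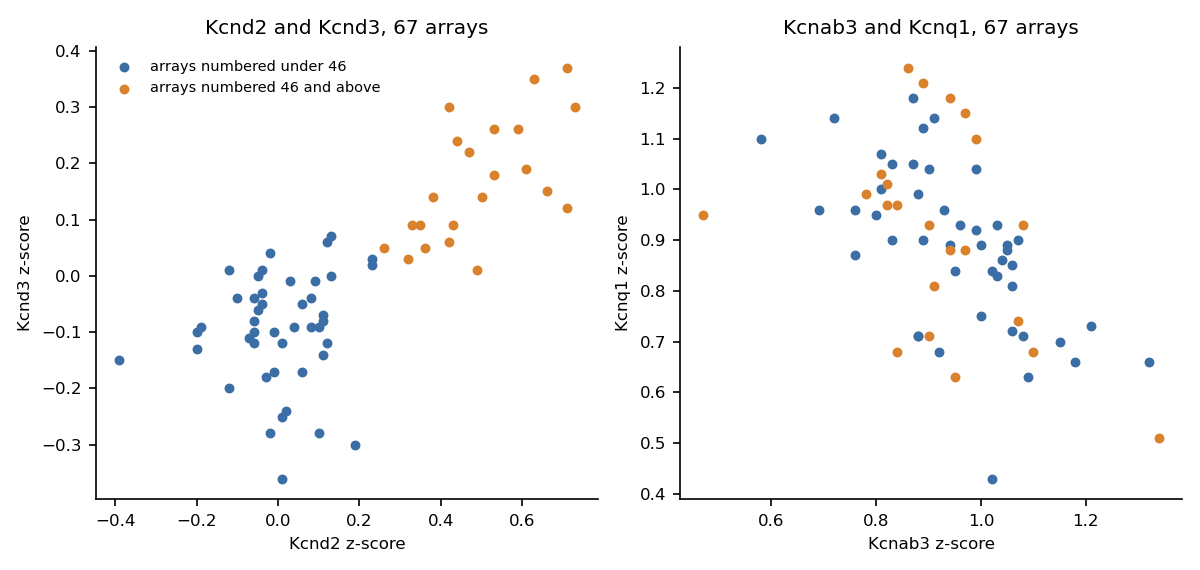
Scatter plots of z-scores over the 67 arrays, Kcnd3 against Kcnd2 on the left and Kcnq1 against Kcnab3 on the right. Each point is an array, blue for arrays numbered under 46 and orange for 46 and above. On the left the arrays form 2 clouds by array series, and on the right Kcnq1 is low where Kcnab3 is high in both colours.

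Over arrays, some pairs of genes varied together. With group means removed, 14 of 78 pairs had a correlation over 0.5 in size, and 6 did once the array series was removed too. Kcnd2 and Kcnd3 had r = 0.82 with group means removed and 0.29 without the series. Of those 6 pairs, Kcnq1 with Kcnab3 was at r = -0.63 with or without the series and -0.74 with the filter neighbours also subtracted (67 arrays, of which 2 are near-identical). With the neighbours subtracted, the other 5 were smaller in size, at 0.07 for Kcnq1 with Kcnmb1 (from -0.51), 0.07 for Kcnmb1 with Kcnab3 (from 0.57), -0.08 for Kcnmb1 with Kcne3 (from 0.54), 0.41 for Kcnj12 with Kcnd2 (from 0.54) and 0.42 for Kcnq1ot1 with Kcnmb1 (from 0.64). Subtraction also made some other pairs larger in size, such as Kcnj12 with Kcnk1 (from 0.26 to -0.48) and Kcnj12 with Scn2b (from 0.11 to -0.48). These arrays share their hybridisation, scaling and tissue, and the values are descriptions. Between 24 and 16 months AL, where Kcnq1 differed most, Kcnab3 had means of 0.94 and 0.95.

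Other genes of synaptic transmission were read from 4 lists, of which 44 genes were measured: 11 of 50 receptor scaffolds and partners, 4 of 30 for transmitter synthesis, transport and breakdown, 7 of 57 other ion channels, and 22 of 67 G proteins and effectors. In all 14 comparisons 0 of the 44 passed the adjusted test, also with both blocks. At an unadjusted p under 0.05 there were 4 higher and 2 lower of 44 in 33-44 against 17-21 days (14% of all probes) and 0 higher and 3 lower in 24 against 16 months AL (6.57%), shares close to those of all probes. For 24 against 16 months CR these numbers were 1 and 3 (4.15%), and for the diets over 3 ages 0 and 0 (0.71%). Markers of cell types were sparse: Nefl was the only one of 10 neuronal markers measured, and 0 were measured for inhibitory neurons, endothelium or choroid plexus, so the tissue label could be checked only in part. Mean z was 0.25 for Nefl and -0.10 for the excitatory neuron marker Slc17a6, and ran from -0.63 to 0.77 over 3 astrocyte markers, from -1.15 to -1.14 over 2 oligodendrocyte markers, from -0.87 to 0.77 over 3 microglial markers and from -1.48 to 1.01 over 5 red cell markers, with 0.12 for the muscle marker Mylpf. In 33-44 against 17-21 days 1 of the 5 red cell markers was lower by the adjusted test, also with both blocks. The 5 differed by -0.42 to 0.41, with a median of -0.34, and their part in the values of the channel genes was not tested.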

How the data were processed

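Per the labels and the study's methods, cortex RNA of 67 mice was reverse transcribed with a radioactive nucleotide and hybridised to cDNA filters, and the authors turned the log intensities of each array into a z-score with mean 0 and SD 1. The deposited score was used as given (array SDs 0.9999 to 1.0001), with 1 missing value among 8448 probes. The intensities, log base and background correction are not used or not given in the sources used here, so the number of arrays limits precision. Labels give the sex, diet and age in days of each mouse, and the 16 groups of age, diet and sex were formed from them here. The labels give no replicate numbers. The array numbers run in 5 cycles, and the methods speak of balanced batches, so array cycle and series were fitted as blocks in alternatives. P-values are set against the spread between arrays of a group. With 1 array for each mouse, that spread holds differences between animals and between hybridisations together. In the main fit, which has no block, it also holds the split by array number, and the near-identical arrays enter it as separate animals.

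The genes and lists were chosen with earlier results of these data known. For a gene with several probes the probe with the highest mean z was taken. Genes named for a comparison are those passing in the main or a blocked fit, the 3 with the smallest p, in 3 comparisons the smallest p of each class, those with several probes, and those known for changes during maturation. A mean was fitted for each group with limma 3.58.1 in R 4.3.3, with equal weight for the sexes, two-sided eBayes p and Benjamini-Hochberg adjustment over all probes (threshold 0.05), checked on simulated data. Symbols came from the platform annotation (4875 probes with 1 symbol, 224 with several, 3349 with none), and all 13 matched RefSeq. Neighbour subtraction removed the mean deviation of spots within 2 rows and 2 columns on the filter, whose layout of 22 columns, 24 rows and 16 blocks was inferred from the probe order. Alternatives covered scaling, blocks, subsets of arrays, filters, the rule of the methods and single arrays left out.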

Additional observations from a re-analysis of the deposited data

Results flagged for a closer look

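In groups of 4 or 5 arrays, 12 of 143 combinations of gene and group held an array far from the others, by a gap to the nearest array of most of the group's range. Chance alone flags about 1 in 20, or 7.15, where the arrays of a group do not differ by array series. Kcnk1, Kcnd3, Kcne3 and Kcnq1ot1 supplied 9 of them. For Kcnk1 the highest arrays were 16 months AL male replicate 1 at 1.61 (others 0.91 to 1.09), 6 months AL male replicate 2 at 1.72 (1.10 to 1.27) and 6 months CR female replicate 2 at 1.58 (1.25 to 1.28). For Kcnd3, 6 months CR male replicate 4 was at 0.24 (others -0.13 to -0.08) and 6 months AL female replicate 2 at -0.14 (0.01 to 0.07). For Kcne3, 6 months AL male replicate 3 was at -0.91 (others -0.67 to -0.62) and 6 months CR female replicate 4 at -0.99 (-0.70 to -0.61).

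Kcnd2 in 6 months CR female replicate 5 was at 0.73 (others -0.05 to 0.12), and this was the only array of its group numbered 46 or above. Kcnq1 in 6 months CR male replicate 4, array 50 and the same mouse as the high Kcnd3 value, was at 1.03 (others 0.88 to 0.89). This too was the only array of its group numbered 46 or above. Kcnq1ot1 was at 0.20 in 16 months AL male replicate 1 (others -0.08 to -0.01), the mouse that was also high for Kcnk1, and at -0.34 in 24 months AL female replicate 5 (-0.09 to -0.01). Kcnab3 in 24 months AL male replicate 2 was at 0.81 (others 0.97 to 1.02).

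No gene had an effect that differed between diets or sexes by the adjusted test of the difference.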

How the results depend on the processing

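The main fit called 0 of 13 genes in each of 14 comparisons, and 206 recomputed counts stayed there. The other 4 were 1 gene, Kcnq1 each time: at 24 against 16 months AL with array cycle and series as blocks (1) and by the rule of the methods (1), and by that rule at 24 against 6 months AL (1) and 24 against 16 months CR (1). Leaving out each array changed 0 of 938 counts (all 0) and turned 0 of 2814 differences of the named genes. Signs turned for Kcnmb1, CR against AL at 16 months, within arrays numbered 46 and above (-0.0275 against 0.10), and with filter neighbours subtracted for 3 other results. Kcnj12, CR against AL at 24 months, was then 0.0207 with blocks and 0.00454 without, and its change from 16 to 24 months, CR minus AL, 0.0544 and 0.0382. Kcnd3, female minus male change from 6 to 24 months AL, was 0.0211 with blocks. None of these was called, and the cause was not tested. Subtraction without blocks, and blocks without the near-identical arrays, were chosen after seeing the data. No paired analysis was possible by replicate number because the labels carry none, and array cycle took its place as a block (alone, the adjusted p of Kcnq1 at 24 against 16 months AL was 0.0754). The 2 groups of juveniles hold 5 arrays each, and the intervals of their 13 differences reached 0.19 to 0.49 to either side, against 0.13 to 0.34 for 24 against 16 months AL. No array of 17-21 days was in the later series, so that comparison could not be fitted within the later arrays.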
